A study of Mus musculus with 7 samples.

Results

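Reg2, Reg3a, Reg3b and Reg3g, 4 of the 33864 genes with a row in the count tables of this mouse pancreas study, encode secreted proteins of the regenerating islet-derived (REG) family. They were taken by name, as the rows of these symbols, and they were chosen by values of these same data, their counts per library and per named cell cluster, so their levels and fold changes are given here as a description, with no test. Single-cell RNA was measured in the whole pancreas of 7 mice labelled C57BL/6 (C57BL/6J.Ola.Hsd in the methods for i4F), each 2 months old and each giving 1 library. The 2 wild-type (WT) mice and the 3 i4F mice drank doxycycline at 1 mg/ml for 7 days. The i4F mice carry a doxycycline-inducible cassette for the reprogramming factors Oct4, Sox2, Klf4 and c-Myc, meant to be active in all tissues, with the transactivator rtTA in the Rosa26 locus, so changes in 1 cell type cannot be assigned to factors made in that cell type alone. The 2 caerulein mice were wild type and received the secretagogue caerulein at 100 µg/kg in 7 injections a day for 2 days to give acute pancreatitis, with sacrifice on day 4, and the labels name no doxycycline for them. The sample names fall into 2 library series: WT 1 and all i4F mice are in series AL, and WT 2 and both caerulein mice are in series AM, so series and treatment are not independent and each treatment shares its series with 1 WT mouse only.

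REG proteins are small secreted C-type lectin-like proteins. In mammals Reg3b and Reg3g are best known as antimicrobial lectins of the intestinal epithelium, induced by interleukin 22 (IL-22) and related cytokines through the transcription factor STAT3. In the pancreas the family is made by acinar cells, the cells that secrete digestive enzymes, and some of its members are acute-phase proteins of pancreatitis. Reg3b is also known as pancreatitis-associated protein, and Reg2 belongs to the lithostathine branch together with Reg1. Acinar cells spill large amounts of RNA when they break, and in droplet sequencing this free RNA is counted in cells of every other type.

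The 4 genes lie within 98.22 kb of mouse chromosome 6 (GRCm38, GENCODE annotation). Reg3b spans 78370657 to 78373466 on the plus strand, Reg3a 78380709 to 78383827 on the plus strand, Reg2 78395623 to 78408106 on the plus strand and Reg3g 78466269 to 78468872 on the minus strand. Reg3d and Reg1 lie in the same interval, and Reg4 is on chromosome 3. The 250 bases before the RefSeq start of each gene are shown because the genes varied together and the start region holds the motifs for acinar and STAT factors that were searched. All 4 sequences are on GRCm38.p6 from RefSeq, 5′ to 3′ on the gene's own strand, and capitals mark matches on either strand to TTCNNNGAA (a STAT site), CACCTG (an E-box), TGGGAA (an RBPJ site) and, for the TATA box, TATAAA. The Reg2 window is chr6:78404905-78405154, the Reg3a window chr6:78380459-78380708, the Reg3b window chr6:78370635-78370884 and the Reg3g window chr6:78468875-78469124. For Reg2 and Reg3b the RefSeq start lies inside the GENCODE span given above. The Reg2 window thus lies within that span, and the Reg3b window overlaps it.
Reg2: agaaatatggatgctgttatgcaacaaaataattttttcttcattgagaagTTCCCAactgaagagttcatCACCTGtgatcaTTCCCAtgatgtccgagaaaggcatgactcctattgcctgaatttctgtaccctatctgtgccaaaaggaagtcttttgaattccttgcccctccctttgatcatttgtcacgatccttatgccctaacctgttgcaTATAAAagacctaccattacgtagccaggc
Reg3a: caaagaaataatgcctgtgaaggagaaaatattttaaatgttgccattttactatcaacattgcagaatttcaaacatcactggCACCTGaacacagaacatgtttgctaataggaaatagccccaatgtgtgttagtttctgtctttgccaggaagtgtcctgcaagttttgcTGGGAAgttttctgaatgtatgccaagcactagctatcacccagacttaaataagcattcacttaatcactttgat
Reg3b: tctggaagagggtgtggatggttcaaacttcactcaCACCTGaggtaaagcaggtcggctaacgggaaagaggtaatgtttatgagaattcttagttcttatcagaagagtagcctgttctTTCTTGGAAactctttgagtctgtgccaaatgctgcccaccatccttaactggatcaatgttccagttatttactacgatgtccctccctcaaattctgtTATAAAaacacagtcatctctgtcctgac
Reg3g: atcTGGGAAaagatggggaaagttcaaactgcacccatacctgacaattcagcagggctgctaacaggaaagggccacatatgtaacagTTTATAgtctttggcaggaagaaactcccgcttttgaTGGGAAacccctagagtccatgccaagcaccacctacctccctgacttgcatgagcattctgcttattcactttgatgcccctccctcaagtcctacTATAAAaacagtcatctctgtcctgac
The STAT motif was found before Reg3b, 129 bases ahead of the start, and in 7.02% of the windows of the same kind before all 32851 genes of the table. The E-box was found before Reg2, Reg3a and Reg3b and in 17.2% of all windows, the RBPJ motif before Reg2, Reg3a and Reg3g and in 21.6%, and the TATA motif before Reg2, Reg3b and Reg3g and in 12.4%. No searched motif was shared by all 4 windows. Over the whole windows the closest pair was Reg3b and Reg3g, with 68.9% identical bases and a longest shared run of 20 bases. Their transcripts were 69.3% identical with a longest identical run of 35 bases, and those of Reg3a and Reg3b 69.5% with a run of 24, so reads of 1 member could be taken for another only within short stretches.

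The libraries held 15469018 to 64784216 unique molecular identifiers (UMIs, each a counted RNA molecule) over 58473 cells. Cells whose cluster name contains the word acinar numbered 853 and 917 in the WT mice, 594, 807 and 2130 in i4F 1 to 3, and 1542 and 1094 after caerulein. Across libraries 366 barcodes occurred more than once, in 732 cells. The WT acinar cells were shallow, with medians of 431 and 502 UMIs, against 606 to 2020 in i4F mice and 1322.5 to 2213.5 after caerulein, and their acinar marker list (20 of 44 genes with a row) summed to 104212 to 121978 CPM (counts-per-million, the UMIs of a gene scaled to all UMIs of the class in that mouse), against 11558 to 68356 in i4F and 11634 to 14214 after caerulein. The RNA of rtTA, which a wild-type mouse should lack, was counted in WT 1 (16 UMIs in 9 cells), WT 2 (3 UMIs), caerulein 1 (7) and caerulein 2 (1), against 722 to 2571 in i4F mice. Both acinar cells of WT 1 that held rtTA were also the pair richest in REG RNA, as described next, and neither shared its barcode with another library.

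Acinar cells held 76.0 to 95.9% of all UMIs of the 4 genes in every mouse, and the genes together made up 12.8, 17.2 and 24.1% of acinar UMIs in i4F 1 to 3. The share was 10.6% in WT 1 and 0.202% in WT 2, and 3.63 and 4.27% after caerulein. Every i4F mouse lay above both WT mice and both caerulein mice, while the caerulein mice lay between WT 1 and WT 2.

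Reg3b, the pancreatitis-associated protein, was counted at 56587 CPM in WT 1 and 458 in WT 2. It stood at 70514, 92496 and 92862 in i4F 1 to 3 and at 23454 and 31158 in caerulein 1 and 2. The i4F values did not overlap those of either other group, and the mean was 85290 ± 12798 (SD, n = 3) in i4F against 27306 ± 5447 (n = 2) after caerulein. The WT mean of 28522 ± 39689 (n = 2) has an SD larger than itself, so the log2 ratio of means was 1.58 for i4F but -0.063 for caerulein, with the caerulein mice between the WT mice.

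Reg2, the lithostathine-type member, was counted at 41400.5 CPM in WT 1 and 1414 in WT 2. It reached 44444, 65681 and 132946 in i4F 1 to 3, and it was 9754 and 7636 after caerulein. The i4F values were all higher than the others, although the lowest of them exceeded WT 1 by little. Group means were 21407 ± 28275 (SD, n = 2) in WT, 81024 ± 46203 (n = 3) in i4F and 8695 ± 1498 (n = 2) after caerulein, with log2 ratios to WT of 1.92 and -1.30.

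Reg3a, a close paralogue of Reg3b, was the member that separated the treatments most. It was counted at 5827 and 52.6 CPM in WT 1 and WT 2, at 6365, 7092 and 10857 in i4F 1 to 3, and at 330 and 384 after caerulein. Caerulein mice were thus below every i4F mouse by more than the range within either group, while WT 1 and WT 2 lay on both sides of them. Means were 2940 ± 4083 (SD, n = 2), 8105 ± 2411 (n = 3) and 357 ± 38.2 (n = 2), with log2 ratios to WT of 1.46 and -3.04.

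Reg3g, the second antimicrobial lectin, was counted at 2495 and 100.3 CPM in the WT mice. It stood at 6648, 6596 and 3837 in i4F 1 to 3 and at 2741 and 3519 in caerulein 1 and 2. Both caerulein mice lay above both WT mice, but caerulein 1 exceeded WT 1 by little, and i4F 3 exceeded caerulein 2 by little. Means were 1298 ± 1694 (SD, n = 2), 5694 ± 1608 (n = 3) and 3130 ± 550 (n = 2), with log2 ratios to WT of 2.13 and 1.27.

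UMIs count molecules whatever the length of the transcript, so the order of the members can be read within a mouse. In i4F mice Reg3b and Reg2 led and did not differ beyond their spread, and Reg3a and Reg3g followed, likewise without a difference beyond their spread. After caerulein the order was Reg3b, Reg2, Reg3g and Reg3a, with no overlap between neighbours. WT 1 had the order Reg3b, Reg2, Reg3a and Reg3g, as i4F 2 did, while in WT 2 Reg2 was the highest. That order in WT 1 came from few cells. In its 833 acinar cells with less than 5% of UMIs from REG genes, Reg2 and Reg3b were close, at 3508 and 3363 CPM. Reg3g there, at 391, lay above Reg3a, at 140.

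**Figure D1:**
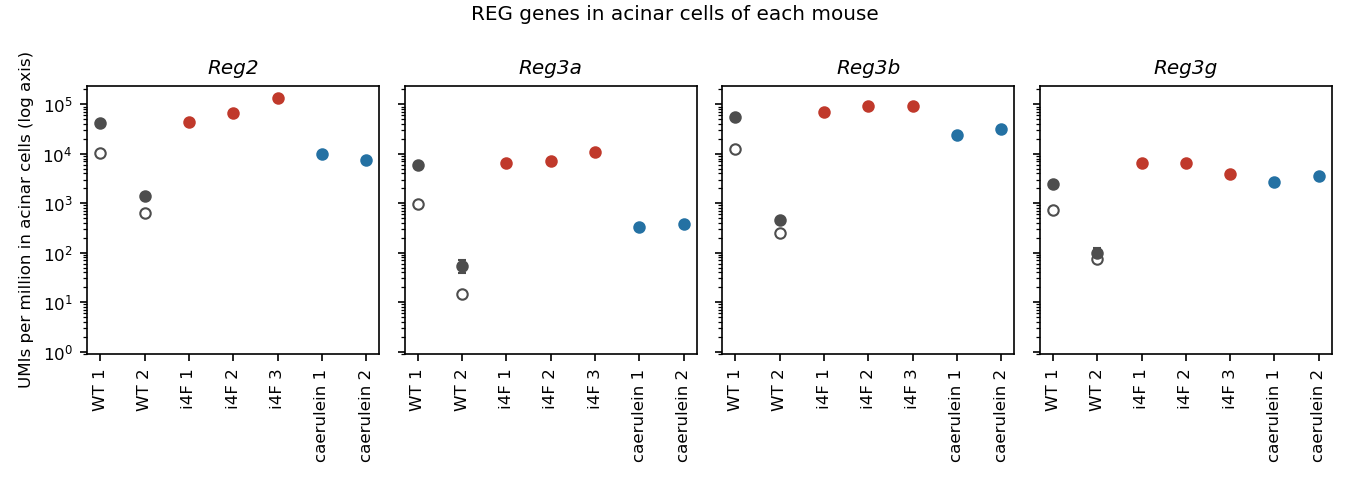
Level of each REG gene in acinar cells of each mouse, in CPM on a log axis. Filled points are all acinar cells with exact 95% Poisson intervals (counting error only), and open circles are the WT mice without the 2 cells that hold the most REG UMIs. WT 1 falls from 56587 to 12313 for Reg3b when those cells are left out, while the i4F mice lie between 70514 and 92862.

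The level in WT 1 was carried by very few cells. A single cell of 74247 UMIs held 49872 REG UMIs, 61.1% of all those in the acinar cells of that mouse, and together with a second cell of 33141 UMIs (15554 from REG genes) it held 80.2%. These are the cells with rtTA: they carried 4 rtTA UMIs, and no other acinar cell of WT 1 carried any. Whether these cells came from this mouse was not tested, and the levels of WT 1 and the WT means given above include them. In WT 2 the top 2 cells held 52.9%, of a total of only 1655 UMIs, whereas they held 2.32 to 7.72% in i4F mice and 1.31 and 1.70% after caerulein. Without its top 2 cells WT 1 stood at 10466 CPM for Reg2, 986 for Reg3a, 12313 for Reg3b and 714 for Reg3g, below every i4F mouse for each gene and below both caerulein mice for Reg3b and Reg3g. Without the WT acinar cells that hold rtTA, the log2 ratios of i4F to WT became 3.77 for Reg2, 3.96 for Reg3a, 3.74 for Reg3b and 3.81 for Reg3g, and those of caerulein 0.55, -0.54, 2.10 and 2.94. Against WT 2 alone, the caerulein ratios were 2.62 for Reg2, 2.76 for Reg3a, 5.90 for Reg3b and 4.96 for Reg3g, so the direction for Reg2, Reg3a and Reg3b after caerulein turned on which WT mouse, and which of its cells, served as the control. The fitted Reg3g difference after caerulein, 0.69 with both WT mice, was -0.21 without WT 2.

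Cell by cell, REG RNA took a large share of most i4F acinar cells and a small share of most WT ones, and 171 of the 853 acinar cells of WT 1 and 641 of the 917 of WT 2 held no REG UMI. The median acinar cell devoted 18.2, 37.3 and 25.7% of its UMIs to the 4 genes in i4F 1 to 3, 3.13 and 4.01% after caerulein, and 0.467 and 0% in WT 1 and WT 2. At least 5% of UMIs came from REG genes in 69.0, 73.1 and 97.1% of i4F acinar cells (exact 95% binomial intervals 65.1 to 72.7, 69.9 to 76.1 and 96.3 to 97.8). The same held for 35.2 and 43.5% of acinar cells after caerulein (intervals 32.8 to 37.7 and 40.5 to 46.5), and for 2.34 and 0.218% in WT (1.44 to 3.60 and 0.0264 to 0.786). Some cells of other classes reached this share too. In i4F 3, 44.3% of endothelial cells, 17.0% of smooth muscle cells, 16.0% of B cells and 13.2% of stellate cells did, while the highest share of any other class was 8.50% in i4F 2, 2.63% in i4F 1 and 3.51% over the WT and caerulein mice. Because WT acinar cells were shallower, each cell was also thinned to 500 UMIs, leaving out shallower cells. This kept 361 and 461 cells in WT, 469 to 1234 in i4F and 1375 and 903 after caerulein. Reg3b was then found in 62.9 and 8.89% of WT acinar cells, 87.4, 88.5 and 99.3% of i4F and 91.3 and 94.2% after caerulein, against 64.4 and 11.2%, 97.1 to 100% and 96.2 and 98.0% before thinning. At the same depth the highest share in any other class was 13.2 and 0.833% in WT, 59.3, 88.1 and 97.7% in i4F and 15.5 and 18.2% after caerulein. In i4F 2 and i4F 3 the acinar share was therefore close to that of the highest other class, NK and T cells, and is not read as a difference from it. Of the 853 acinar cells of WT 1, 20 had at least 5% and held 94.3% of the REG UMIs, and 8 lay between 4 and 6%.

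**Figure D2:**
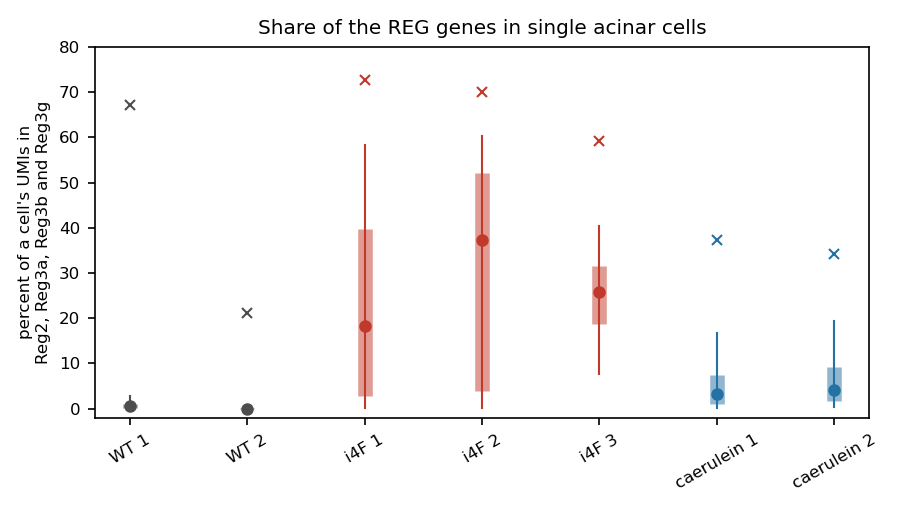
Share of each acinar cell's UMIs that came from the 4 REG genes, by mouse, in percent. The dot is the median, the box 25 to 75%, the line 5 to 95% and the cross the highest cell. Medians are 18.2 to 37.3% in i4F mice, at most 4.01% after caerulein and at most 0.467% in WT, while the highest WT 1 cell reaches 67.2%.

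The acinar name covers more than 1 kind of cell in i4F mice. These were split by the authors into Acinar_1 (11, 61 and 2071 cells in i4F 1 to 3) and Acinar_2 (583, 746 and 59 cells), so the clusters largely separate i4F 3 from the other i4F mice. Reg3g was lower in Acinar_1 within each of these mice, at 5537 against 6657 CPM in i4F 1, 4575 against 6655 in i4F 2 and 3349 against 8379 in i4F 3, and the i4F 1 values rest on 11 Acinar_1 cells. Reg2 stood at 45643 in Acinar_1 against 44435 in Acinar_2, 111740 against 64318 and 139940 against 67852, but this order reversed in each mouse when cells with less than 5% REG RNA were left out, so no direction is read for Reg2. Over all cells Reg3a and Reg3b were also higher in Acinar_1 in each mouse, and their order reversed likewise. No direction is read for them either. Among cells with at least 5%, a cut on the REG share itself, each REG gene was lower in Acinar_1 in each mouse. Reg3b stood there at 83677 against 173683, 160207 against 217012 and 100379 against 203823 CPM. Macrophage markers summed to 17496, 5591 and 212 CPM in those Acinar_1 cells, against 664, 469 and 79.9 in Acinar_2. Their part in this order was not tested. Within Acinar_2, the cells with less than 5% REG RNA, 183 in i4F 1 and 209 in i4F 2, did not carry the acinar program either. Enzyme genes made up 0.0856 and 0.0207% of their UMIs, against 0.885 and 1.22% in the other Acinar_2 cells of the same mice. Gp2, a zymogen granule membrane protein, stood at 144 and 205 CPM against 3082 and 6705, and Krt19, a duct keratin, at 3015 and 3478 against 702 and 322. Krt13, Krt6a and Ly6g6c, genes of stratified epithelia picked after their values were seen, were also higher in these cells. Krt13 stood at 1400.2 and 1447 against 89.4 and 31.6, Krt6a at 854 and 867 against 54.7 and 4.44 and Ly6g6c at 8140.1 and 3632 against 51.0 and 77.1. In i4F 3 the 23 such Acinar_2 cells were lower in these genes, at 275, 5.97 and 119, with enzyme genes at 0.301% of UMIs. For the cells of i4F 1 and i4F 2, which were set apart by their low REG share, the acinar name goes against their enzyme content.

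Markers of other cell types also differed between the acinar sums. Macrophage markers (6 of 6 with a row) summed to 22.2 to 83.2 CPM in WT, 201 to 789 in i4F and 1186 to 2153 after caerulein, and ductal markers (9 of 10) to 368 to 417, 919 to 2483 and 1352 to 1752. Neutrophil markers (5 of 5) summed to 1.22 to 2.61, 15.9 to 138 and 87.6 to 219. B cell, T and NK cell and mesothelial markers reached their highest values in i4F. In the same order B cell markers summed to 5.21 to 34.3, 13.4 to 406 and 4.13 to 5.09. T and NK cell markers summed to 2.61 to 12.2, 7.61 to 64.1 and 0.413 to 7.98, and mesothelial markers to 1.22 to 6.52, 6.93 to 244 and 1.53 to 2.89. Islet markers were highest in WT, at 589 to 839, against 9.91 to 143 in i4F and 5.94 to 32.6 after caerulein. Endothelial markers were highest in WT too, at 93.8 to 96.6, against 8.50 to 32.2 and 14.5 to 26.3. Their part in the REG levels was not tested.

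Proportions within the family differed by treatment. For every 100 UMIs of Reg3b, acinar cells held 10.3 and 11.5 of Reg3a in the WT mice and 9.03, 7.67 and 11.7 in i4F 1 to 3, but 1.41 and 1.23 after caerulein. In WT they rested on few cells: without the 2 cells that held the most REG UMIs they were 8.01 and 5.91, and in cells under 5% REG RNA 4.15 and 4.44, where caerulein mice had 1.19 and 0.988 and i4F mice 5.42 to 12.4. Reg3d, a neighbour of Reg3a on the opposite strand, was also low after caerulein, at 99.6 and 89.2 CPM, against 1860 and 909 in WT and 737, 1082 and 2276 in i4F. Its fitted log2 difference after caerulein was -4.45 (SE 0.85, adjusted p = 0.0670 by the quasi-likelihood test of edgeR), short of the threshold of 0.05. Reg2 for every 100 of Reg3b was 73.2 and 309 in WT, 63.0, 71.0 and 143 in i4F and 41.6 and 24.5 after caerulein, so Reg3b led most clearly after caerulein. Reg3g for every 100 of Reg3b was 11.7 and 11.3 after caerulein, above the 9.43, 7.13 and 4.13 of i4F 1 to 3 and within the WT range of 4.41 to 21.9.

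In i4F and caerulein mice, acinar cells with more of 1 member tended to have more of the others. Over acinar cells with at least 1000 UMIs, Spearman's rho between the shares of Reg2 and Reg3b was 0.93, 0.88 and 0.69 in i4F 1 to 3 (382, 572 and 724 cells), 0.78 and 0.76 after caerulein (1139 and 652 cells) and 0.67 and 0.30 in WT (152 and 209 cells). The other pairs had rho of 0.440 to 0.922 in i4F and caerulein mice and 0.382 to 0.593 in WT 1, and in WT 2 they were lower, from 0.0574 for Reg2 and Reg3a to 0.250 for Reg3g and Reg3b. The share of REG genes and that of the enzyme genes had rho of 0.863, 0.822 and 0.364 in i4F, 0.544 and 0.644 after caerulein and -0.0909 and 0.121 in WT. In i4F 1 and i4F 2 the cells used include Acinar_2 cells with almost no enzyme RNA, described above. Their part in rho was not tested. The cells of a mouse share 1 library, and these coefficients only describe it. Over 65 combinations of mouse and cell class, the 3 genes of 8989 closest to each member in level were the other 3 members, with Pearson's r from 0.893 to 0.963, and these points share libraries and depth.

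Outside acinar cells, the 4 genes were found in most classes of cell. The exceptions were in both WT mice and caerulein 2, among them Reg3a in lymphatic endothelial cells of both WT mice, in most classes of WT 2 and in endocrine, endothelial and mesothelial cells of caerulein 2. Reg2 stood at 20.1 to 26.2 UMIs per cell across the 8 other classes of i4F 3, from NK and T cells to B cells, against 180 in its acinar cells, at 3.61 to 4.54 in i4F 2 (364 in acinar) and at 1.05 to 4.87 in i4F 1 (264). It stood at 0.167 to 0.538 in WT 1 (37.2), 0.0319 to 0.0991 in WT 2 (1.26), 0.391 to 6.25 in caerulein 1 (37.3) and 0.134 to 0.718 in caerulein 2 (16.9). In no mouse did any class exceed the acinar cells. Reg3b behaved alike, from 12.6 to 16.7 UMIs per cell in i4F 3 (126 in acinar) down to 0 to 0.0335 in WT 2 (0.408). In some classes a few cells held most of this RNA: 3 of the 57 endocrine cells of caerulein 1 held 94.8% of the REG UMIs of that class, and 3 of the 238 ductal cells of caerulein 2 held 60.1%. In i4F 3, where the levels outside acinar cells were highest, the top 3 cells held 1.70 to 12.2% of a class. The median non-acinar cell held 28 to 34 REG UMIs in i4F 3, 7 to 9 in i4F 2, 2 to 3 in i4F 1 and 0 to 1 in the WT and caerulein mice. B cells, which are not known to make REG proteins, had a Reg3b UMI in 95.3% of cells of i4F 3 at 500 UMIs a cell, 86.7% in i4F 2, 59.3% in i4F 1 and 6.52 and 0% in WT (before thinning 99.9, 96.2 and 74.8, and 34.0 and 1.80%). The caerulein cluster named for B cells had 11.3 and 9.14% (30.2 and 22.4% before thinning), but its values go against that name: B cell markers summed to 1222 and 301 CPM there, against 29490.3 to 71148 in the B cells of the other mice, and Il1b stood at 3888 and 3041 CPM. Other classes went higher than B cells in most mice, up to 13.2% (lymphatic endothelial cells) in WT 1, 0.833% (NK and T cells) in WT 2, 15.5% (endothelial cells) in caerulein 1 and 18.2% (smooth muscle cells) in caerulein 2, and to 88.1 and 97.7% (NK and T cells) in i4F 2 and i4F 3. No share of cells with a UMI at or below the highest of these in the same mouse is read as expression.

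**Figure D3:**
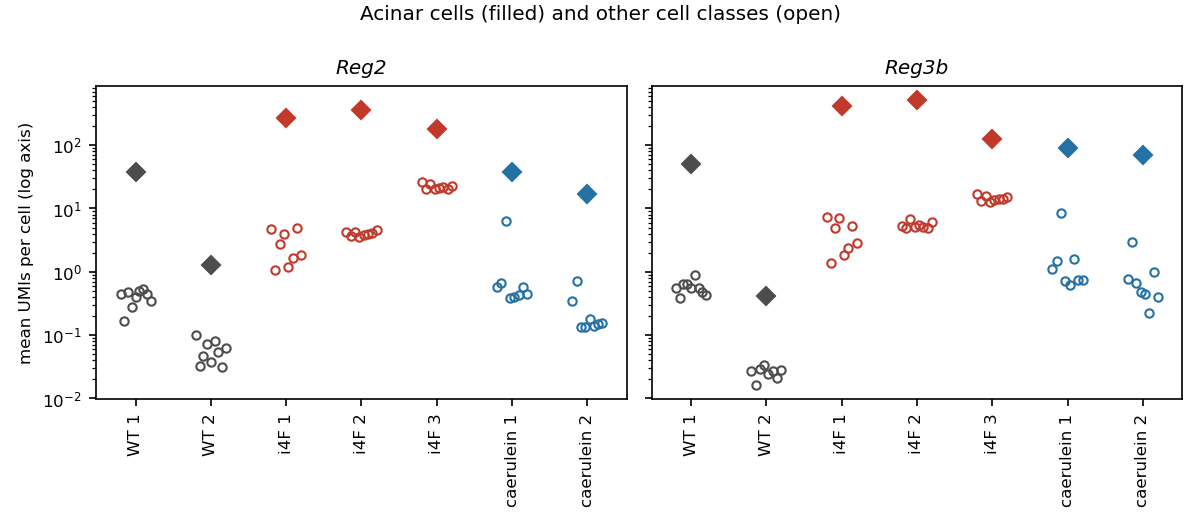
Mean UMIs per cell of Reg2 and Reg3b in acinar cells (filled) and in each other class with at least 20 cells (open circles), by mouse, on a log axis (classes at 0, such as lymphatic endothelial cells of WT 2 for Reg3b, are not drawn). In i4F 3 the other classes lie together at 20.1 to 26.2 UMIs of Reg2, below the 180 of acinar cells, and no class in any mouse lies above acinar cells.

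Free RNA from 1 source keeps its genes in 1 ratio in every cell that takes it up. REG UMIs were therefore set against those of the acinar enzyme list, which should come from the same source, inside and outside acinar cells. In i4F and caerulein mice the ratio outside acinar cells was 72.1 to 131% of that inside for the 4 genes. For Reg3b it was 99.9, 88.5 and 107% in i4F 1 to 3 and 92.4 and 77.9% after caerulein. Of these 20 values, 7 were above 100%, 4 of them for Reg2. In WT 1 the ratio outside was 8.73 to 25.7% of that inside. There the cells with at least 5% REG RNA had 1107 Reg3b UMIs for every 100 enzyme UMIs, the other acinar cells 4.89 and the non-acinar cells 13.1, so the non-acinar cells lay between the kinds of acinar cell. For Reg3b this held in the other mice too, except i4F 3, where non-acinar cells had 306 against 294 and 57.9. In WT 2, with few UMIs, the ratio outside was 47.8 to 150% of that inside. A second reference was the 20 genes most particular to acinar cells of the WT mice by a fixed rule, 5 of them enzymes. It includes Nupr1 and Asns. Acinar cells held 33.0 to 66.0% of its UMIs over the mice, so a single source is not established for it. Whether other cells made the rest was not tested. It gave lower percentages, for Reg3b 5.32, 10.5 and 59.2% in i4F, 13.4 and 8.52% after caerulein and 5.17 and 37.3% in WT. The percentage thus depended on the reference, and in i4F and caerulein mice it was below 100 for all 4 genes with the second one.

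**Figure D4:**
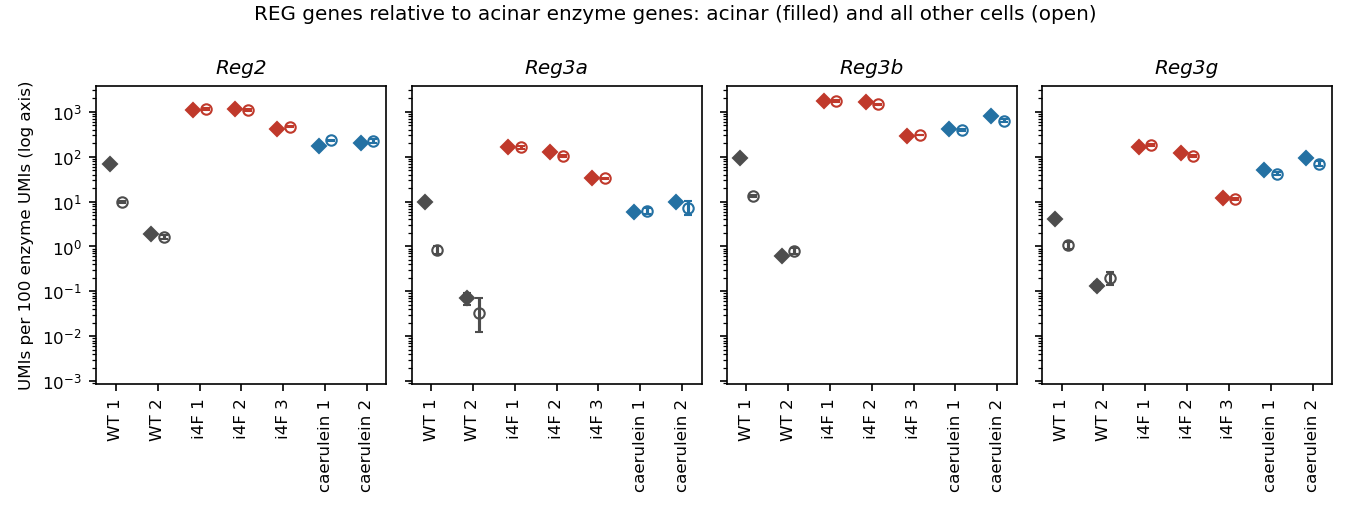
UMIs of each REG gene for every 100 UMIs of the acinar enzyme list, by mouse on a log axis, in acinar cells (filled) and all other cells (open, both with exact 95% intervals for counting error). Filled and open points lie close together in i4F and caerulein mice, where the open one is 72.1 to 131% of the filled one, and apart in WT 1, where it is 8.73 to 25.7%.

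The cytokines that induce REG genes in epithelia were followed by cell class. Il6 was found in stellate cells of every mouse, at 284 and 177 CPM in WT, 130, 253 and 430 in i4F and 253 and 294 after caerulein, so the groups overlapped. Il11, a related cytokine of fibroblasts, did not overlap in stellate cells, at 5.6 in both WT mice, 218, 223 and 73.0 in i4F and 70.1 and 29.6 after caerulein. The exact Poisson interval of i4F 3, 64.9 to 81.8, covers caerulein 1, so no order is read between those mice. The stellate class pools quiescent and activated clusters in WT and holds only clusters named activated in the other groups, and the part of this makeup in Il6 and Il11 was not tested. Osm in macrophages was 87.6 and 50.9 in WT, 313, 295 and 131 in i4F and 136 and 197 after caerulein. Il1b in macrophages was 5755 and 2467, 9100, 10637 and 4719, and 3366 and 1976 in the same order, again overlapping. The macrophage class pools clusters whose makeup differed between groups: neutrophil markers summed to 84.8 to 733 CPM in WT, 1666 to 5741 in i4F and 466 to 628 after caerulein, and dendritic cell markers to 534 to 690, 43.8 to 709 and 1.16 to 2.94. Their part in Osm, Il1b and Tnf was not tested. Il17a in NK and T cells was 5.5 and 12.8 in WT and 108, 39.7 and 16.9 in i4F. The WT values rest on 1 and 3 UMIs, so no order is read for it. Ifng in the same class was higher in WT, at 394 and 364 against 67.0, 56.2 and 58.9 in i4F. Lif in ductal cells was 8.60 and 2.15 in WT, 67.9, 67.8 and 10.1 in i4F and 14.9 and 20.9 after caerulein. Tnf in macrophages was 784 and 714 in WT, 1002, 769 and 699.8 in i4F and 238 and 244 after caerulein, so the caerulein mice were lowest. Il22, the best-known inducer of Reg3b and Reg3g, was counted only 1 and 2 times in the WT libraries and 2, 0 and 5 times in the i4F libraries, which is too shallow to compare. It was not analysed here in caerulein mice.

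In acinar cells the listed genes around the REG family were then tested, with 73 of the 117 listed genes passing the filter on low counts (90 have a row). None passed the test in either treatment, where 0.0359% of all 11134 genes tested were called higher and 0.0449% lower in i4F, and 0% higher and 0.0359% lower after caerulein. At an unadjusted p under 0.05 the counts were 24 and 38 of the 73 (32.9 and 52.1%), beside 2796 and 2443 of all genes tested (25.1 and 21.9%), and DESeq2 called 17 and 26. Leaving out i4F 3 gave 46 listed genes in i4F and 42 after caerulein, and other settings moved them as far with all mice kept. Listed genes are therefore given by their values. The median log2 difference of all genes tested was 0.14 in i4F and 0.10 after caerulein.

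Receptors for these cytokines (8 of 9 tested) had medians of -0.09 in i4F and -0.03 after caerulein, and the genes of STAT3 signalling and feedback (10 of 11) 0.32 and 0.33. Stat3 itself was 40.4 and 36.7 CPM in WT, 38.2, 49.7 and 50.6 in i4F and 45.1 and 64.4 after caerulein. Socs3, the feedback inhibitor induced by STAT3, was 84.7 and 215 in WT, 49.3, 69.6 and 63.0 in i4F and 75.9 and 71.0 after caerulein. All i4F and caerulein values lay below both WT values. The exact Poisson interval of WT 1, 65.4 to 108, covers i4F 2 and both caerulein mice, but not i4F 1 or i4F 3. No fall from WT 1 is therefore read for i4F 2 or after caerulein. Cish, of the same list, was below both WT mice (31.3 and 45.3) after caerulein (14.3 and 21.5). The exact Poisson interval of Cish in WT 1 covers caerulein 2 but not caerulein 1. In i4F Cish overlapped the WT mice (23.5, 33.1 and 35.3). Bcl3 was 1.30 and 4.89 in WT, 8.21, 10.3 and 7.27 in i4F and 12.05 and 12.8 after caerulein. Jak2 was 6.52 and 1.22, then 10.5, 8.50 and 6.93, then 6.79 and 11.6. The WT values rest on 1 and 4 UMIs for Bcl3 and 5 and 1 for Jak2, so no order is read for them. Nfkbiz was 15.6 and 26.9, then 36.8, 31.1 and 30.1, then 57.0 and 54.1. Its exact Poisson interval in WT 2, 16.9 to 40.7, covers the i4F values but not those after caerulein. None of the genes of this list passed the test in either treatment. Extl3, a membrane protein that binds REG proteins, had log2 differences of -1.64 and -2.06. The 6 inducing cytokines of 9 that could be tested had medians of 4.40 and 4.18, and macrophage markers were higher in the same sums, as given above. In each WT mouse these cytokines rest on 0 to 5 acinar UMIs per gene, so the size of their medians is not read.

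The acute-phase and injury genes (10 of 16 tested) had medians of 2.14 and 2.44, and their order over the mice differed from gene to gene. Clu, a secreted chaperone of injured epithelium, stood at 42139 and 45493 CPM after caerulein, against 6063 and 4893 in WT and 3659 to 11967 in i4F. Nupr1, a stress-induced nuclear protein, stood at 43966 and 39372 after caerulein, 18780 and 16133 in WT and 6962 to 10958 in i4F, with no overlap between groups. Tff1, a trefoil peptide of gastric mucus, was counted at 1099, 317 and 255 in i4F and 3.73 and 0 after caerulein, and has no row in the WT table, so it entered the fit as 0 there. Without it the medians of the list would be the values of Anxa1 (1.97) in i4F and Clu (2.41) after caerulein. Lcn2, a siderophore-binding protein, was 357 and 4.89 in WT, 2202, 1121 and 39.5 in i4F and 138 and 282 after caerulein, so the same WT mouse was the higher one as for the REG genes.

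The lists of the acinar program had medians of the opposite sign to the REG ratios in i4F mice, with Dmbt1 (0.25) and Gata6 (0.015) among the exceptions. The enzymes (10 of 33 tested) had median log2 differences of -2.16 in i4F and -4.92 after caerulein, the granule and inhibitor genes (7 of 11) -1.79 and -4.61, and the transcription factors of acinar identity (8 of 9) -0.96 and -0.80. Pla2g1b, a pancreatic phospholipase, stood at 21719 and 34829 CPM in WT, 343, 1476 and 13141 in i4F and 1074 and 470 after caerulein. Gp2 was 15048 and 15557, then 1289, 3039 and 8848, then 899 and 696. The ductal and metaplasia genes (13 of 16) had medians of 1.57 and 2.18. Krt19 came closest to the threshold, with log2 differences of 4.33 (SE 0.56, adjusted p = 0.0538) in i4F and 3.39 (SE 0.56, adjusted p = 0.0610) after caerulein by the test of edgeR. It stood at 61.2 and 68.5 in WT, 2109, 2109 and 517 in i4F and 921 and 1135 after caerulein, with no overlap between WT and the others. The acinar sums of i4F 1 and i4F 2 include the Acinar_2 cells with almost no enzyme RNA described above, which supply 2150469 of 3530216 and 2539447 of 4470144 UMIs and are high in Krt19, so they weigh on the acinar, ductal and REG values of these mice.

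**Figure D5:**
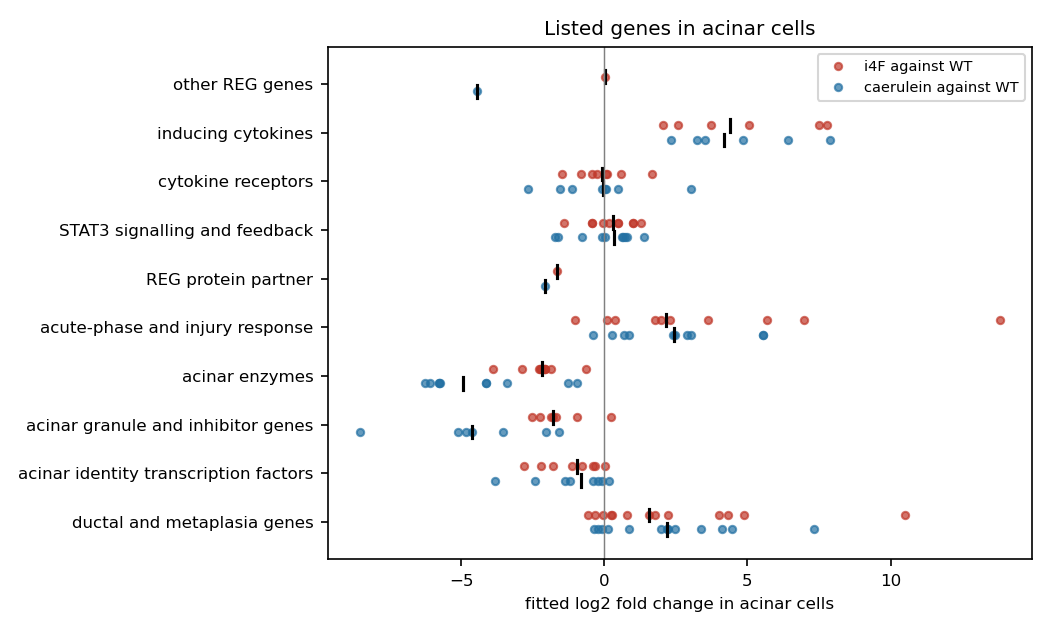
Fitted log2 differences to WT in acinar cells for the listed genes, by list, for i4F (red) and caerulein (blue) mice, with short black bars for the medians. No gene passes the threshold in either treatment, and Krt19 (4.33 and 3.39) comes closest, while the enzymes have medians of -2.16 and -4.92.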

How the data were processed

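Single-cell libraries (10x Genomics 3′ v3) were aligned by the authors to GRCm38 (mm10) and counted with Cell Ranger. The deposited values are UMI counts per gene and cell, 1 table per condition, with the authors' cluster names. Per the methods, SoupX was used against free RNA (whether before the deposited counts is not given in the sources used here), cells under 150 genes or over 5% mitochondrial UMIs were excluded, and Seurat v3 clusters used 20 principal components at resolution 0.2. From there, counts were summed per mouse and class, and levels are CPM (UMIs scaled to all UMIs of the class). The exact 95% Poisson and binomial intervals cover counting error only. The acinar sums of 7 mice in 3 groups (11134 genes) were fitted with edgeR 4.0.16 (R 4.3.3, TMM, quasi-likelihood, two-sided, Benjamini-Hochberg, threshold 0.05), with DESeq2 1.42.0 as an alternative. The SE is the log2 difference divided by the square root of F. The mouse was the replicate. In simulated counts for i4F, 49% of genes changed by 2 on the log2 scale and 95% of those changed by 4 were recovered, and for caerulein 39 and 92%. False calls numbered 10 and 5. The simulation used only the trend of the spread over genes and well-counted genes, with the same changes in both treatments. Krt19, with a fitted difference of 4.33 in i4F, was not called in the data, so these shares can overstate the power.

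The REG genes, lists and tests were chosen with earlier results of these data known. Named genes are the members, the listed genes with values needed beside them, and the 3 genes most like each member. Beyond these, rtTA, Asns of the second reference, and Krt13, Krt6a and Ly6g6c are named, the last of these groups picked after their values were seen. Cell types are the authors' cluster names, which the listed markers only check. Doublets were kept in the main values. As an alternative, since the automatic threshold of Scrublet (scanpy 1.11.5) marked 2 and 0 cells in WT 1 and i4F 3, the highest-scoring 3.47 to 12.1% of cells per library were removed, at 0.8% for every 1000 cells. A gene with no row in a table was taken as 0 there in the fit (34 tested genes in WT, among them Tff1 of the lists, and 21 in caerulein). Reg1, most abundant digestive enzymes and the main islet hormones were not analysed here.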

Additional observations from a re-analysis of the deposited data

How the results depend on the processing

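The log2 ratios of the REG genes to WT in acinar cells kept their sign in i4F mice and moved in size with the weight given to WT 1. With cells of at least 500 genes they were lower, 1.02 for Reg2, 0.55 for Reg3a, 0.72 for Reg3b and 1.33 for Reg3g in i4F and -2.21, -4.07, -0.92 and 0.52 after caerulein, where the fitted Reg3g difference turned from 0.69 to -0.099. Weighting cells equally (the mean share over cells) gave 4.99 for Reg2, 5.48 for Reg3a, 5.05 for Reg3b and 4.91 for Reg3g in i4F, and 1.96, 1.14, 3.30 and 3.69 after caerulein, where Reg2, Reg3a and Reg3b were below 0 in the sums. Thinning cells to 500 UMIs, chosen like the former after seeing the data, gave 4.90, 5.42, 4.98 and 4.88 in i4F and 1.83, 1.03, 3.18 and 3.61 after caerulein. Mean UMIs per cell gave 3.81 for Reg2 and 4.54 for Reg3g in i4F and 2.97 for Reg3g after caerulein, and the difference of mean log2 levels gave 4.06 and 2.41 for Reg3b. Leaving out the WT acinar cells with rtTA, also added, gave 3.77 for Reg2 and 3.96 for Reg3a in i4F and 0.55 and -0.54 after caerulein. With only mice of 1 library series, the caerulein ratios were 2.62, 2.76, 5.90 and 4.96, and the i4F ratios, against WT 1, fell to 0.97, 0.48, 0.59 and 1.19. Leaving out 1 mouse at a time, i4F ratios ranged from 0.97 to 5.84 for Reg2, 0.48 to 7.27 for Reg3a, 0.59 to 7.54 for Reg3b and 1.19 to 5.83 for Reg3g, and caerulein ratios from -2.25 to 2.62, -4.03 to 2.76, -1.05 to 5.90 and 0.33 to 4.96, with the highest values without WT 1.

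Genes called among all tested, 9 in i4F and 4 after caerulein, depended on nearly every choice, and the cause was not tested. They were 892 and 906 with DESeq2, 3 and 2 without TMM (which moved the median log2 difference of all genes to 0.32 and 0.69), 2004 and 1505 without the filter, 0 and 2030 with only the 2 groups, 0 and 0 with library series as a term or with doublets removed, 57 and 16 with cells of at least 500 genes, and 4 and 432 after thinning. Of the listed genes, none called in either treatment, DESeq2 called 17 and 26, no filter 38 and 40, only the 2 groups 41 after caerulein, at least 500 genes 1 in i4F, and thinning 1 and 22. Leaving out 1 mouse gave 0 to 3629 in i4F and 0 to 2151 after caerulein (0 to 46 and 0 to 42 listed), the highest without i4F 3. Replicate numbers come from the titles and do not mark shared animals, and same-numbered mice did not deviate together (correlations 0.0029 and -0.0405 for WT with i4F, -0.205 for WT with caerulein). The replicate block raised the calls to 3294 and 1861 (46 and 39 listed), and the crossed pairing for caerulein, suggested by the negative correlation, gave 2245 (3674 for i4F in the same fit). Counting depth limits the low values most. Of the REG genes, Reg3a in WT 2 rests on 43 acinar UMIs, and some listed genes rest on fewer, such as Bcl3 in WT 1 and Jak2 in WT 2 on 1 each.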
